A study of Mus musculus with 10 samples.

Results

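The genes described here are the transcripts of the mitochondrial genome in mouse liver. They were chosen as the genes of the deposited expression table whose symbol starts with mt-, which gave 37 of 29657 genes: 13 mRNAs, 2 rRNAs and 22 tRNAs. The data were 10 bulk RNA-seq libraries of liver from C57BL/6 mice, all kept for 8 weeks on CDAHFD, a choline-deficient high-fat diet that produces fatty liver with inflammation. For 5 libraries the diet was combined with intravenous AAV8-TBG-galectin-3, an adeno-associated virus whose TBG promoter is active in hepatocytes; the labels give these livers as a hepatocyte-specific knockdown of galectin-3 and do not describe the insert. The other 5 came from mice given the control virus AAV8-NC, whose genotype label is WT. No group without the diet or without a virus was analysed here, so every value below comes from livers on the diet. The labels give no age or sex of the mice.

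The mitochondrial genome is a small circle that is transcribed from both strands into long precursors. Enzymes cut out the tRNAs, and this frees the rRNAs and mRNAs that lie between them, so genes of 1 strand start from shared transcripts and their final levels also depend on processing and decay. The mRNAs encode core subunits of respiratory complexes I, III and IV and of ATP synthase, whose other subunits, like all of complex II, come from nuclear genes. Hepatocytes are rich in mitochondria, and mitochondrial RNA is a large part of liver RNA.

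The sequences that matter for reading these values are those of tRNA genes that differed between the groups or moved together, and those of genes that share bases with another gene. They are taken from GENCODE M21 transcripts of the mouse build GRCm38, in which all 37 genes were matched by Ensembl identifier. The first 3 tRNA genes below were called higher in the libraries labelled knockdown, mt-Tv with a limit given with its values, and the next 3 are neighbours whose levels varied together from library to library. Each is printed 5′ to 3′ as the DNA of the gene, with the anticodon in capitals.
mt-Tt, threonine, 67 bases: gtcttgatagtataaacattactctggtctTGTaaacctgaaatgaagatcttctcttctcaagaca
mt-Tp, proline, 67 bases: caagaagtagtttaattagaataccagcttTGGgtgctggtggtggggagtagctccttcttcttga
mt-Tv, valine, 69 bases: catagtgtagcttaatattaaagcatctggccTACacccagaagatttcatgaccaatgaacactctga
mt-Th, histidine, 67 bases: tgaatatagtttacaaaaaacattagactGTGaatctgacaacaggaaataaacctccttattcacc
mt-Ts2, serine, 59 bases: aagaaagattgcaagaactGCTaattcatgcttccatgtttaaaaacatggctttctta
mt-Tl2, leucine, 71 bases: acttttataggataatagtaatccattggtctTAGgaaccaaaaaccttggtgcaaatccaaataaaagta

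Before any comparison, the libraries were checked against their labels. Lgals3 (ENSMUSG00000050335), the gene of galectin-3, stood at 67.4, 90.8, 85.2, 85.6 and 41.9 FPKM in the libraries labelled knockdown 1 to 5, against 105, 73.9, 61.6, 71.0 and 42.2 FPKM in AAV8-NC libraries 1 to 5. FPKM scales fragments to transcript length and library size. No decrease of the target was detectable in whole liver of the labelled group (limma, log2 fold change 0.08, SE 0.25, adjusted p = 0.856). The name labelled knockdown is therefore used for the group, and each direction below holds only as far as the labels do. The summed level of each of 11 marker lists overlapped between the groups. The hepatocyte sum was 34412 to 43382 FPKM in the libraries labelled knockdown and 38441 to 43352 FPKM in AAV8-NC libraries, with Ttr higher and Cps1 and Ass1 lower among its 8 markers. The Kupffer cell sum was 102 to 148 FPKM in the libraries labelled knockdown and 138 to 220 FPKM in AAV8-NC libraries, with Adgre1 and Cd5l lower among 7 tested markers. The stellate cell sum was 60.0 to 99.7 FPKM in the libraries labelled knockdown and 83.4 to 100.1 FPKM in AAV8-NC libraries, with Reln and Col1a1 lower among 8 markers. The sinusoidal endothelium sum was 16.7 to 23.8 FPKM in the libraries labelled knockdown and 19.1 to 33.8 FPKM in AAV8-NC libraries, with Pecam1 lower among 8 markers. The cholangiocyte sum was 41.7 to 295 FPKM in the libraries labelled knockdown and 126 to 365 FPKM in AAV8-NC libraries, and of the tested markers of this and of the blood cell, muscle and brown fat lists, none (0) was called. The call of Ttr was kept in 5 of the 10 fits that left out 1 library, and those of Col1a1 and Pecam1 in 2. Among all tested genes 7.13% were called higher and 9.65% lower. The log2 fold change was above 0 in 5 of 8 hepatocyte, 1 of 7 Kupffer cell and 0 of 8 stellate cell markers. It was above 0 in 1 of 8 endothelial, 0 of 5 cholangiocyte and 0 of 5 erythroid markers, beside 44.4% of all tested genes. The other lists had 1 or 2 tested markers each. Most of the hepatocyte sum was Alb. The part of these differences in the mitochondrial values was not tested.

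Mitochondrially encoded transcripts took 21.7, 16.3, 14.4, 14.9 and 14.8% of all FPKM in the libraries labelled knockdown 1 to 5, against 12.97, 14.2, 13.7, 13.4 and 16.9% in AAV8-NC libraries 1 to 5. Library 1 of the labelled knockdown and library 5 of AAV8-NC were each the highest of their group, and AAV8-NC library 5 lay above 4 of the 5 libraries labelled knockdown, so the groups overlapped. The means were 16.4 ± 3.06% in the libraries labelled knockdown and 14.2 ± 1.57% in AAV8-NC libraries (SD, n = 5 each, as for every mean below). Weighted by transcript length, which approximates fragments, the shares were 6.32 ± 1.38% in the libraries labelled knockdown and 5.21 ± 0.643% in AAV8-NC libraries. In bulk tissue, fewer cells of a type and less RNA per cell cannot be told apart, and since FPKM is relative, more mitochondrial RNA and less nuclear RNA cannot be told apart either.

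**Figure D1:**
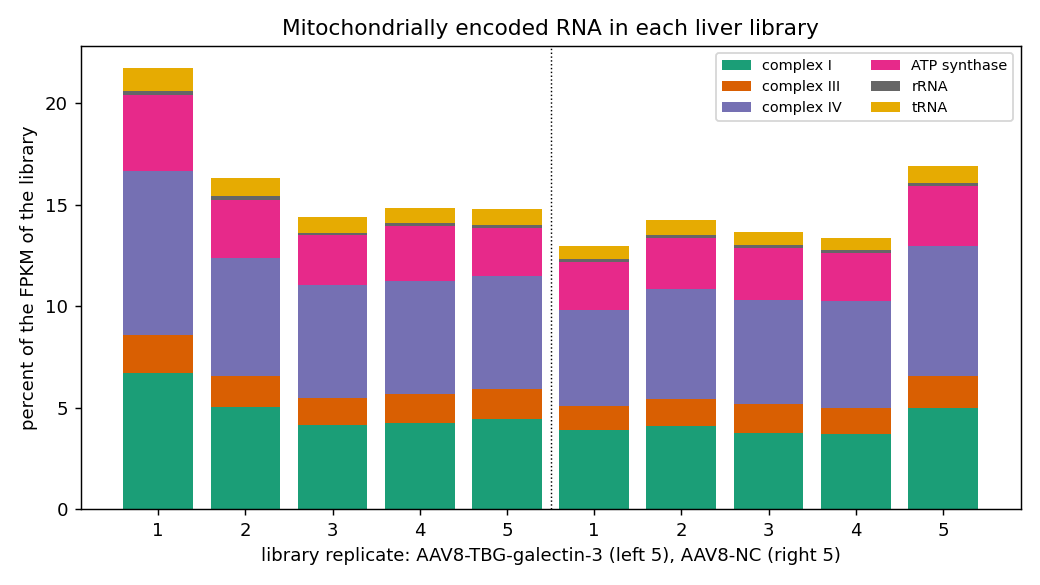
Percent of the FPKM of each library that came from the mitochondrially encoded genes, stacked by complex for the mRNAs and by class for rRNAs and tRNAs, for the 5 libraries labelled knockdown (AAV8-TBG-galectin-3, left) and the 5 AAV8-NC libraries (right). Labelled knockdown library 1 stands at 21.7% and AAV8-NC library 5 at 16.9%; the other bars lie between 12.97 and 16.3%, and the order and relative height of the segments are similar in all 10.

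Gene by gene, the groups were compared with limma on log2(FPKM + 1) over all 13471 genes with at least 0.5 FPKM in at least 5 libraries, and a gene was called at a Benjamini-Hochberg adjusted p under 0.05. All 37 members passed the filter. Of these, 4 were called higher in the labelled knockdown, which is 10.8% of them beside 7.13% of all tested genes, and 0 were called lower, beside 9.65% of all tested genes. The share called was thus close to the background, and the 4 genes are described below as single genes: mt-Nd3, mt-Tt, mt-Tp and mt-Tv. mt-Tv passed the filter only through the group where it is high, so its call is given as a description, and without it the count is 3. Without AAV8-NC library 5 the count was 11, beside 6.99% of all genes called higher, and without AAV8-NC library 2 it was 1, beside 3.65%. It was 2 without labelled knockdown library 5 and 2 without AAV8-NC library 1, 3 or 4. With median-of-ratios scaling it was 6, beside 9% of all genes called higher and 7.57% lower, and with libraries scaled to genes that are not mt- it was 2, beside 5.52% higher and 11.8% lower. Without the highest library of each group, a choice made after seeing the data, it was 12, beside 4.68%. The log2 fold change was above 0 in 32 of 37 members, beside 44.4% of all tested genes, with a median of 0.34 beside -0.04 for all genes. At an unadjusted limma p under 0.05 there were 11 members, beside 33.5% of all tested genes. These members share each library's mitochondrial content, so they are not independent of each other.

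Of the 7 mRNAs of complex I, which passes electrons from NADH into the respiratory chain, 1 was called higher. mt-Nd3 (ENSMUSG00000064360), a small membrane subunit, had 1029, 707, 684, 705 and 736.5 FPKM in the libraries labelled knockdown, against 455, 459, 505, 506 and 753 FPKM in AAV8-NC libraries. Labelled knockdown library 1 was far above its group, and AAV8-NC library 5 alone reached the labelled knockdown range. mt-Nd3 was higher by a log2 fold change of 0.54 with an SE of 0.16 (limma, adjusted p = 0.0415), with 5 of 5 libraries labelled knockdown above the AAV8-NC mean. The call was kept in 2 of the 10 fits that left out 1 library, those without labelled knockdown library 4 or AAV8-NC library 5, and the adjusted p reached 0.0982 in the others. It was also lost in 5 of 13 other settings (adjusted p from 0.0541 to 0.155): the 5 in which mt-Tp, below, lost its call, with the largest p when the length trend was removed (log2 fold change 0.35).

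The other complex I mRNAs did not pass the test. mt-Nd1, a core membrane subunit, averaged 5780 ± 1502 FPKM in the libraries labelled knockdown and 4336 ± 994 FPKM in AAV8-NC libraries (log2 fold change 0.41, limma adjusted p = 0.155), and 4 of the AAV8-NC libraries, at 3662 to 4180 FPKM, lay below the whole labelled knockdown range of 4814 to 8429 FPKM. mt-Nd6, the only mRNA of the opposite (light) coding strand, averaged 2132 ± 470 FPKM in the labelled knockdown and 1578 ± 467 FPKM in AAV8-NC (0.45, adjusted p = 0.139). mt-Nd4 averaged 3958 ± 968 FPKM in the labelled knockdown and 3064 ± 370 FPKM in AAV8-NC (0.35, adjusted p = 0.148). mt-Nd5, the longest mRNA at 1824 bases, averaged 1755 ± 444 FPKM in the labelled knockdown and 1396 ± 281 FPKM in AAV8-NC (0.32, adjusted p = 0.248). Both encode proton-pumping subunits of the membrane arm. mt-Nd4l, a small subunit beside them, averaged 1742 ± 459 FPKM in the labelled knockdown and 1459 ± 201 FPKM in AAV8-NC (0.23, adjusted p = 0.354). mt-Nd2, another subunit of the membrane arm, had 5469, 4347, 3166, 3004 and 2829 FPKM in the libraries labelled knockdown, against 3065, 3405, 3299, 3340 and 3011 FPKM in AAV8-NC libraries (0.18, limma adjusted p = 0.512). Its 2 highest values and its 2 lowest were all in the labelled knockdown, and the AAV8-NC libraries lay close together.

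mt-Cytb, the cytochrome b of complex III, had 7864, 6214, 5225, 5440 and 5863 FPKM in the libraries labelled knockdown and 4520, 5036, 5444, 4841 and 6205 FPKM in AAV8-NC libraries. The groups overlapped, with AAV8-NC library 5 above 3 of the libraries labelled knockdown, and the gene did not pass (log2 fold change 0.23, limma adjusted p = 0.293). In complex IV, cytochrome c oxidase, mt-Co1 was the most abundant member, with 19537, 13343, 12857, 12307 and 12868 FPKM in the libraries labelled knockdown and 10555, 12584, 11614, 11959 and 14546 FPKM in AAV8-NC libraries. Apart from the highest library of each group the ranges overlapped between 12307 and 12584 FPKM (0.20, limma adjusted p = 0.417). mt-Co2, the subunit that takes electrons from cytochrome c, averaged 5564 ± 1254 FPKM in the labelled knockdown and 4225 ± 789 FPKM in AAV8-NC (0.39, adjusted p = 0.131). mt-Co3, the remaining core subunit, averaged 4946 ± 1031 FPKM in the labelled knockdown and 4055 ± 563 FPKM in AAV8-NC (0.28, adjusted p = 0.229). Of the ATP synthase genes, mt-Atp6, a part of the proton channel, averaged 6703 ± 1475 FPKM in the labelled knockdown and 5425 ± 639 FPKM in AAV8-NC (0.29, adjusted p = 0.219). mt-Atp8, a small accessory subunit, averaged 4675 ± 1194 FPKM in the labelled knockdown and 4308 ± 489 FPKM in AAV8-NC (0.09, limma adjusted p = 0.731), the smallest log2 fold change of the 13 mRNAs.

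**Figure D2:**
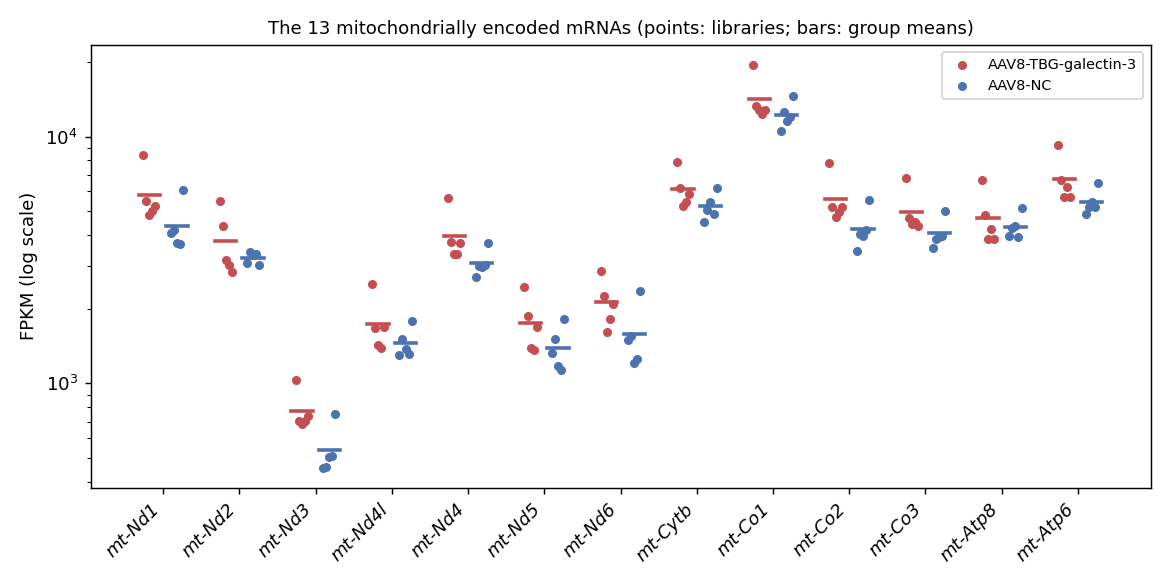
FPKM (log axis) of the 13 mitochondrially encoded mRNAs in the 5 libraries labelled knockdown (AAV8-TBG-galectin-3, left point column of each gene) and the 5 AAV8-NC libraries (right column); bars are group means. Every mean is higher in the labelled knockdown and every gene overlaps between the groups, with mt-Nd3, at 772 ± 145 FPKM in the labelled knockdown and 536 ± 124 FPKM in AAV8-NC, the only one called.

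Over the 13 mRNAs the median log2 fold change was 0.29, with a range of 0.09 to 0.54, and 0 of 13 had groups that did not overlap. The mRNA sum was 53201 to 86291 FPKM in the libraries labelled knockdown and 45202 to 62427 FPKM in AAV8-NC libraries. Without labelled knockdown library 1 the median log2 fold change fell to 0.17, and without AAV8-NC library 5 it was 0.36.

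The rRNAs form the large and small subunits of the mitochondrial ribosome. They and the tRNAs lack the long poly(A) tails that the oligo(dT) step of these libraries selects, so their values here do not stand for their abundance in the cell. mt-Rnr1 had 419.6, 429, 315, 364 and 355 FPKM in the libraries labelled knockdown, against 294, 287, 335, 322 and 249 FPKM in AAV8-NC libraries. All 5 libraries labelled knockdown lay above the AAV8-NC mean, and labelled knockdown library 3 lay inside the AAV8-NC range (limma log2 fold change 0.34, SE 0.11, adjusted p = 0.0590). AAV8-NC library 5, the highest of its group for the mRNA sum, was the lowest for this rRNA. mt-Rnr2 averaged 295 ± 61.1 FPKM in the libraries labelled knockdown and 246 ± 37.7 FPKM in AAV8-NC libraries (0.25, limma adjusted p = 0.281). The ratio of mt-Rnr1 to mt-Rnr2 was 1.295 ± 0.125 in the labelled knockdown and 1.23 ± 0.211 in AAV8-NC, with p = 0.5 by exact two-sided permutation.

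Of the 22 tRNA genes, 3 were called higher, mt-Tv among them, and 0 lower. With 59 to 75 bases they are far shorter than the inserts the labels give for these libraries, so a fragment that counts for a tRNA gene largely covers its neighbours, and FPKM per base of such short genes is uncertain. mt-Tt (ENSMUSG00000064371), the threonine tRNA, had 4.66, 3.63, 4.87, 4.85 and 3.80 FPKM in the libraries labelled knockdown, against 2.64, 2.67, 1.69, 2.66 and 2.88 FPKM in AAV8-NC libraries. The groups did not overlap, and the levels were low. mt-Tt was higher by a log2 fold change of 0.62 (SE 0.11, adjusted p = 0.0101 by limma). This call was kept in all 10 fits that left out 1 library and in 13 other settings, but not when libraries were scaled to the sum of the mitochondrial mRNAs (adjusted p = 0.0757), a fit described further below. All these fits use the same FPKM values, which carry no read counts. They cannot show how few fragments lie behind a level this low in so short a gene. The authors' deposited q-value for mt-Tt was 0.310. Labelled knockdown library 1 and AAV8-NC library 5, the outlying libraries of the mRNAs, did not stand apart for this gene.

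mt-Tp (ENSMUSG00000064372), the proline tRNA and the neighbour of mt-Tt on the opposite strand, had 346, 228, 207, 205 and 216 FPKM in the libraries labelled knockdown, against 157, 165, 151, 163 and 201 FPKM in AAV8-NC libraries. The groups did not overlap, by a margin of a few FPKM (limma log2 fold change 0.50, SE 0.15, adjusted p = 0.0392). The call was kept in 3 of the 10 fits that left out 1 library, those without labelled knockdown library 1 or 4 or AAV8-NC library 5, and the adjusted p reached 0.0868 in the rest. It was lost in 5 of 13 other settings: no filter on low values, scaling to genes that are not mt-, quantile normalization, the replicate block and the length trend removed (adjusted p from 0.0544 to 0.0965). mt-Tv (ENSMUSG00000064338), the valine tRNA between the rRNAs, had 0.706, 1.11, 0.619, 1.16 and 0.882 FPKM in the libraries labelled knockdown, against 0.403, 0.346, 0.388, 0.0458 and 0.576 FPKM in AAV8-NC libraries. Its log2 fold change was 0.49 (SE 0.12, limma adjusted p = 0.0225). All 5 libraries labelled knockdown but only 1 AAV8-NC library reached 0.5 FPKM, so mt-Tv passed the filter only through the group where it is high, and neither its call nor its non-overlap is support. The call was lost without AAV8-NC library 2 (adjusted p = 0.0505) and in 4 of 12 other settings: a pseudocount of 0.01, no filter on low values, the replicate block and the length trend removed (adjusted p from 0.0517 to 0.110). Over all 37 members, 3 had every library labelled knockdown above every AAV8-NC library, 2 without mt-Tv, beside 5.66% of all tested genes, and 0 had the reverse, beside 7.48%.

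The tRNA genes of the light coding strand had the higher median FPKM in these libraries, with overlap. The 8 of them averaged 80.2 to 863 FPKM over all 10 libraries, with a median of 112, while the 14 of the heavy coding strand averaged 0.623 to 239 FPKM, with a median of 11.6. The libraries were made strand-marked, but no source used here gives the strand setting of the counting, so reads of a light-strand tRNA and of a heavy-strand precursor across it cannot be told apart. All 8 light-strand tRNAs had a log2 fold change above 0, with a median of 0.40, and only mt-Tp was called. The serine tRNA mt-Ts1 had 1228, 896, 899.5, 883 and 1006 FPKM in the libraries labelled knockdown, against 651, 713, 661, 754 and 941 FPKM in AAV8-NC libraries (limma log2 fold change 0.40, SE 0.13, adjusted p = 0.0548). As for mt-Nd3, only AAV8-NC library 5 reached the labelled knockdown range. The glutamate tRNA mt-Te averaged 911 ± 207 FPKM in the libraries labelled knockdown and 685 ± 112 FPKM in AAV8-NC libraries (0.40, adjusted p = 0.115).

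Between mt-Nd2 and mt-Co1 lie the light-strand tRNAs for alanine, asparagine, cysteine and tyrosine, preceded by the heavy-strand tryptophan tRNA. In this cluster mt-Ta averaged 116 ± 23.3 FPKM in the libraries labelled knockdown and 90.02 ± 38.5 FPKM in AAV8-NC libraries, and mt-Tn averaged 97.4 ± 16.1 FPKM in the labelled knockdown and 78.8 ± 25.7 FPKM in AAV8-NC. mt-Tc averaged 87.1 ± 17.3 FPKM in the labelled knockdown and 73.3 ± 20.6 FPKM in AAV8-NC, and mt-Ty averaged 125 ± 31.1 FPKM in the labelled knockdown and 108 ± 21.8 FPKM in AAV8-NC. None of the 4 was called (limma adjusted p from 0.218 to 0.443). The tryptophan tRNA mt-Tw had 122, 60.3, 81.6, 67.0 and 86.3 FPKM in the libraries labelled knockdown, against 46.9, 47.6, 42.04, 26.4 and 130.5 FPKM in AAV8-NC libraries. Here AAV8-NC library 5 was the highest of all 10 and the other 4 lay below the labelled knockdown range (limma log2 fold change 0.67, SE 0.34, adjusted p = 0.197). Without that library mt-Tw, mt-Ta and mt-Tn were among the 11 members called.

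The methionine and glutamine tRNAs, neighbours on opposite strands, stood out in 1 library. mt-Tm had 556 FPKM in labelled knockdown library 1, against 199 to 213 FPKM in the other 4 of that group and 141 to 202 FPKM in AAV8-NC libraries (limma adjusted p = 0.150). mt-Tq had 248 FPKM in the same library, against 91.4 to 104 FPKM in the other 4 and 75.0 to 103 FPKM in AAV8-NC libraries (adjusted p = 0.268). The isoleucine tRNA mt-Ti beside them did not share this jump, with 69.0 FPKM in that library, 39.1 to 57.2 FPKM in the rest of its group and 18.5 to 56.5 FPKM in AAV8-NC libraries (adjusted p = 0.514).

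The histidine, serine and leucine tRNAs mt-Th, mt-Ts2 and mt-Tl2, which follow each other between mt-Nd4 and mt-Nd5 and are printed above, had a spread about as large as their mean in AAV8-NC libraries. mt-Th had 5.60, 5.21, 16.7, 8.42 and 7.67 FPKM in the libraries labelled knockdown, against 12.2, 52.1, 11.9, 10.3 and 3.08 FPKM in AAV8-NC libraries. In AAV8-NC library 2 mt-Th stood at 52.1, mt-Ts2 at 42.3 and mt-Tl2 at 36.9 FPKM, and in AAV8-NC library 5 they stood at 3.08, 1.99 and 2.52 FPKM. Their sum was 12.5, 14.5, 43.5, 21.4 and 19.0 FPKM in the libraries labelled knockdown and 29.6, 131, 30.8, 27.1 and 7.58 FPKM in AAV8-NC libraries. The extremes of both directions lay in AAV8-NC, and none of the 3 was called (limma adjusted p from 0.467 to 0.530). The mRNAs on either side did not follow: mt-Nd4 and mt-Nd5 in AAV8-NC library 2 were at 2976 and 1515 FPKM, within the range of their group.

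The remaining heavy-strand tRNAs were not called. The glycine tRNA mt-Tg had 59.2, 24.5, 53.2, 44.2 and 58.4 FPKM in the libraries labelled knockdown, against 17.7, 39.5, 24.7, 16.9 and 44.0 FPKM in AAV8-NC libraries. Its log2 fold change of 0.77 (SE 0.30) was the largest of the members, but labelled knockdown library 2 lay inside the AAV8-NC range, while the other 4 lay above it (limma adjusted p = 0.102). The leucine tRNA mt-Tl1 averaged 267 ± 46.0 FPKM in the libraries labelled knockdown and 212 ± 64.4 FPKM in AAV8-NC libraries (adjusted p = 0.236), and the arginine tRNA mt-Tr averaged 11.7 ± 3.31 FPKM in the labelled knockdown and 13.9 ± 8.55 FPKM in AAV8-NC (adjusted p = 0.815). The phenylalanine, aspartate and lysine tRNAs were at low FPKM. mt-Tf averaged 0.997 ± 0.465 FPKM in the labelled knockdown and 0.766 ± 0.471 FPKM in AAV8-NC, and mt-Td averaged 1.67 ± 0.469 FPKM in the labelled knockdown and 1.13 ± 0.649 FPKM in AAV8-NC. mt-Tk averaged 1.53 ± 1.09 FPKM in the labelled knockdown and 2.42 ± 1.53 FPKM in AAV8-NC, and none of the 3 was called (limma adjusted p from 0.273 to 0.542). mt-Tk, mt-Tr and the 3 clustered tRNAs were the 5 members with a log2 fold change below 0.

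**Figure D3:**
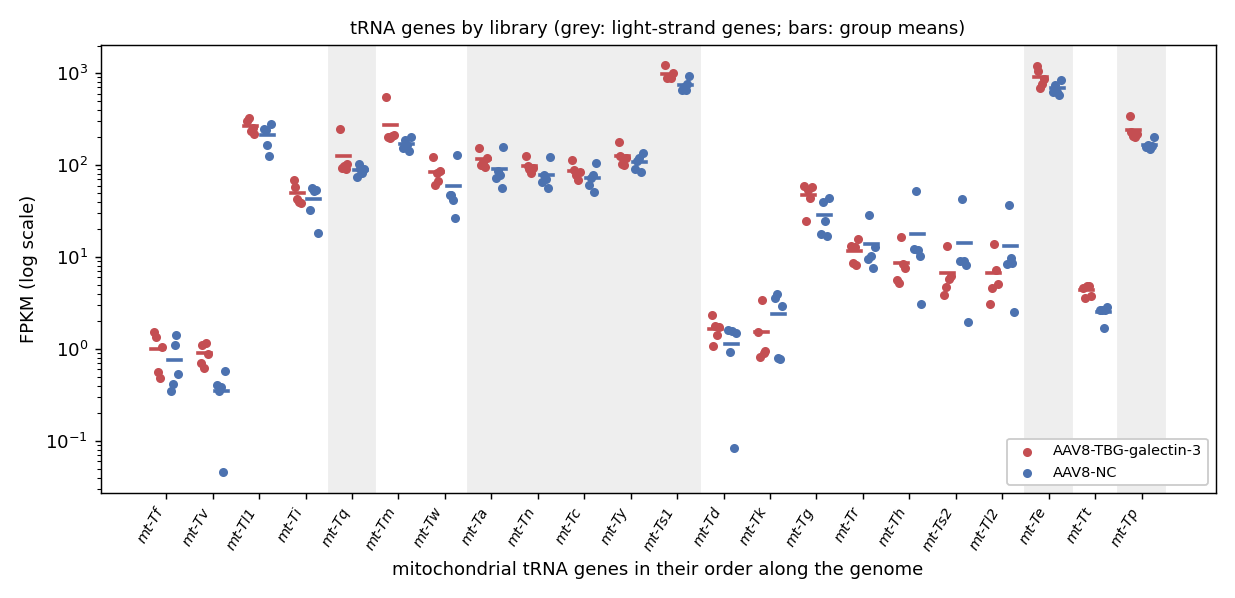
FPKM (log axis) of the 22 mitochondrial tRNA genes in their order along the mitochondrial genome, for the 5 libraries labelled knockdown (AAV8-TBG-galectin-3, left of each pair) and the 5 AAV8-NC libraries (right); bars are group means and grey marks genes of the light coding strand. The light-strand genes lie at 80.2 FPKM and above on average, and the neighbours mt-Th, mt-Ts2 and mt-Tl2 show the same spread, with 1 high and 1 low AAV8-NC library.

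Some mitochondrial mRNAs have near-identical copies in the nuclear genome, left by transfers of mitochondrial DNA, and the table lists 8 of them as genes of their own. Their sequences decide how far the values of mt- genes can be read. The 90 bases below, bases 445 to 534 of mt-Co2 counted from its first base, are shown for the mitochondrial gene and for the same stretch of a pair of nuclear copies, with the bases that differ from mt-Co2 in capitals.
mt-Co2, chromosome M: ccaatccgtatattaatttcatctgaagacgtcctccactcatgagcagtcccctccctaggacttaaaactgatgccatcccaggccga
Gm28661, chromosome 1: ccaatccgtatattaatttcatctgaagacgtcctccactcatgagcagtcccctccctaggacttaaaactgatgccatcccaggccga
Gm13341, chromosome 2: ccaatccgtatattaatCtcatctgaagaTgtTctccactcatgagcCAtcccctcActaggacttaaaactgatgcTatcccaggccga
Gm28661 has 0 differences from mt-Co2 in this stretch and is identical over all 681 bases of its alignment. Gm13341 has 7 differences here and 16 over its 672 bases.

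Copies identical over nearly the whole gene stood near the FPKM of that gene, copies of part of a gene stood lower, and those at 97.6% identity far lower. Gm28661 stood at 0.995 to 1.002 times the FPKM of mt-Co2 in the 10 libraries, whereas Gm13341, at 97.6% identity, stood at 0.0019 to 0.0021 times mt-Co2. Gm28437 (783 of 783 bases identical to mt-Co3) stood at 0.993 to 1.004 times mt-Co3, Gm10222 (294 of 294 bases, mt-Nd4l) at 1.003 to 1.02 times mt-Nd4l, and Gm28438 (342 of 342 bases, mt-Nd3) at 0.946 to 0.987 times mt-Nd3. Gm28439 is identical to mt-Nd4 over 876 bases, 63.6% of that gene, and stood at 0.514 to 0.601 times it. Gm29216 matches mt-Co1 over 482 of 483 bases, 31.3% of the gene, and stood at 0.287 to 0.385 times it. Gm13340, with 37 differences from mt-Co1, stood at 0.0004 to 0.0006 times it. Reads from an identical stretch cannot be told apart, so the levels of mt-Nd3, mt-Nd4, mt-Nd4l, mt-Co1, mt-Co2 and mt-Co3 are uncertain by as much as the copy's own value. mt-Atp8 and mt-Atp6 lie between mt-Co2 and mt-Co3 on the mitochondrial genome. No listed copy matched either of them, but copies that are not listed as genes were not searched for. Their levels, and the mt-Atp8 share and ratio given below, may therefore carry the same uncertainty.

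The 6 copies of at least 99% identity took 4.96 ± 0.822% of all FPKM in the libraries labelled knockdown and 4.17 ± 0.546% in AAV8-NC libraries, and with them the mitochondrial share became 21.4 ± 3.88% in the labelled knockdown and 18.4 ± 2.10% in AAV8-NC. Whether the same reads were counted for both a gene and its copy is not recorded. If they were, the share with the copies counts those reads more than once. Gm28438, the copy of mt-Nd3, was itself called (740 ± 140 FPKM in the libraries labelled knockdown and 519 ± 115 FPKM in AAV8-NC libraries, log2 fold change 0.52, limma adjusted p = 0.0444), and its call was kept in 2 of the 10 fits that left out 1 library, with adjusted p up to 0.106 in the others. With the values of 4 copies that cover their genes added to mt-Nd3, mt-Nd4l, mt-Co2 and mt-Co3, the count of called members was again 4 and mt-Nd3 had an adjusted p of 0.0451. Each of these copies stood at a nearly constant multiple of its gene in all 10 libraries, so the addition could change little. It is no test of the mt-Nd3 call, and neither is the call of Gm28438.

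**Figure D4:**
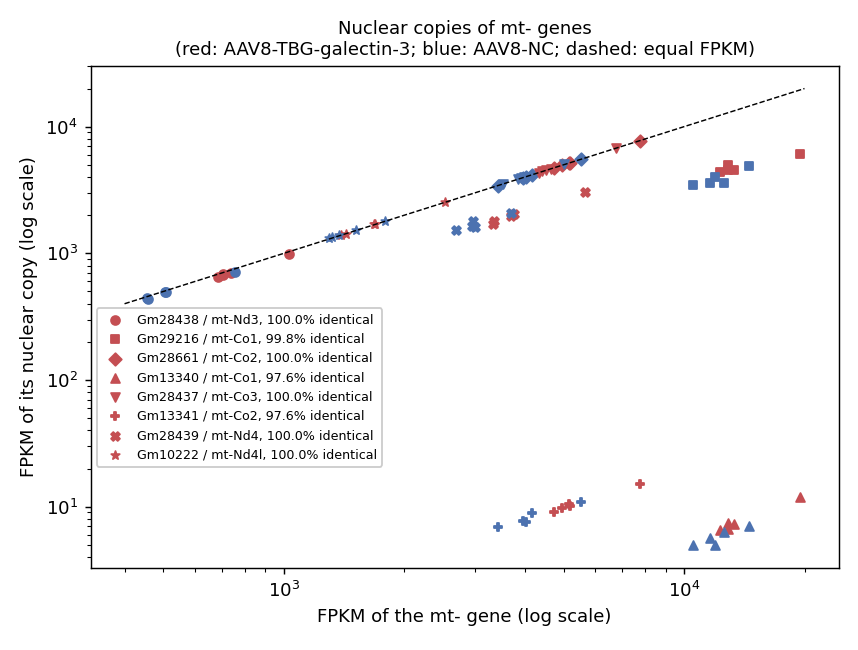
FPKM of 8 nuclear copies against the FPKM of the mitochondrial gene each resembles (both axes log), 1 point per library, red for the labelled knockdown (AAV8-TBG-galectin-3) and blue for AAV8-NC; marker shapes name the pair and its identity over the aligned bases. Copies identical over nearly the whole gene lie on the dashed line of equal FPKM, the partial copies of mt-Co1 and mt-Nd4 lie below it, and the copies at 97.6% identity lie far below, at 0.0004 to 0.0021 of their gene.

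Within the mitochondrial total of each library the make-up was similar in both groups. mRNAs made up 93.8 ± 0.187% of it in the libraries labelled knockdown and 94.2 ± 0.343% in AAV8-NC libraries, rRNAs made up 1.03 ± 0.137% in the labelled knockdown and 1.02 ± 0.194% in AAV8-NC, and tRNAs 5.22 ± 0.155% in the labelled knockdown and 4.80 ± 0.344% in AAV8-NC. By complex, complex I mRNAs were 29.9 ± 1.03% of the total in the labelled knockdown and 28.7 ± 1.05% in AAV8-NC, and the complex III mRNA was 9.31 ± 0.476% in the labelled knockdown and 9.62 ± 0.489% in AAV8-NC. Complex IV mRNAs were 37.4 ± 1.16% in the labelled knockdown and 37.8 ± 1.09% in AAV8-NC, and ATP synthase mRNAs were 17.2 ± 0.815% in the labelled knockdown and 17.98 ± 0.550% in AAV8-NC. Every one of these 7 shares overlapped between the groups.

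When each library was scaled to the sum of its 13 mitochondrial mRNAs and the whole table was refitted, 0 of 37 members were called, beside 0.483% of all genes called higher and 11.7% called lower. At an unadjusted limma p under 0.05 there were 2 members, beside 34.4% of all genes: mt-Tv (log2 fold change 0.42, adjusted p = 0.0511) and mt-Tt (0.42, adjusted p = 0.0757). This scaling moved the median of all genes to -0.22, and the median of the 13 mRNAs was 0.02 on this scale. mt-Nd3 stood at 0.27 (limma adjusted p = 0.190) and mt-Atp8 at -0.17 (adjusted p = 0.269).

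mt-Atp8 was the mRNA whose share of the mRNA sum separated the groups. It took 7.76, 7.85, 7.24, 7.75 and 6.88% of the sum in the libraries labelled knockdown, against 8.71, 8.43, 8.85, 8.08 and 8.19% in AAV8-NC libraries. Every library labelled knockdown was below every AAV8-NC library. On FPKM, the labelled knockdown lay below AAV8-NC without overlap in 7.48% of all tested genes and above it in 5.66%. These percentages are for unscaled FPKM and are not a matching background for a share of the mRNA sum. The matching values are not given here. With libraries scaled to that sum, 11.7% of all genes were called lower and 0.483% higher. In the scaled fit mt-Atp8 was not called (limma adjusted p = 0.269), so the separation of this share is given as a description. The other 12 mRNA shares overlapped. Among them, mt-Nd3 took 1.25 ± 0.0715% in the labelled knockdown and 1.04 ± 0.108% in AAV8-NC, mt-Nd1 took 9.26 ± 0.321% in the labelled knockdown and 8.43 ± 0.921% in AAV8-NC, and mt-Co1 took 22.9 ± 0.837% in the labelled knockdown and 24.02 ± 0.779% in AAV8-NC.

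mt-Atp8 and mt-Atp6 lie on 1 mRNA and share 43 bases, and so do mt-Nd4l and mt-Nd4, which share 7 bases. The last 60 bases of the first gene of each pair are given here because reads across them count for both genes; the bases shared with the start of the next gene are in capitals.
mt-Atp8, last 60 of 204 bases: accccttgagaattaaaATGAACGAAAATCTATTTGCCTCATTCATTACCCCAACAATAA
mt-Nd4l, last 60 of 297 bases: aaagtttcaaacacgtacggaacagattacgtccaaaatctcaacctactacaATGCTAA
The ratio of mt-Atp8 to mt-Atp6 FPKM was 0.725, 0.716, 0.678, 0.673 and 0.676 in the libraries labelled knockdown, against 0.812, 0.823, 0.797, 0.755 and 0.786 in AAV8-NC libraries. The groups did not overlap. On the log2 scale the ratio was lower by 0.20, with p = 0.00794 by exact two-sided permutation, the smallest p it can give, and 0.0317 after adjustment over the 4 ratios computed. The permutation tests were added after these values had been seen, and groups that do not overlap always give this p. It describes the separation and adds no support beyond it. The ratio of mt-Nd4l to mt-Nd4 was 0.439 ± 0.0164 in the labelled knockdown and 0.476 ± 0.0257 in AAV8-NC (exact permutation p = 0.0317, adjusted 0.0635), with overlap. The ratio of mt-Nd6 to mt-Nd5, neighbours on opposite strands, was 1.22 ± 0.0712 in the labelled knockdown and 1.12 ± 0.112 in AAV8-NC (exact permutation p = 0.103, adjusted 0.138).

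**Figure D5:**
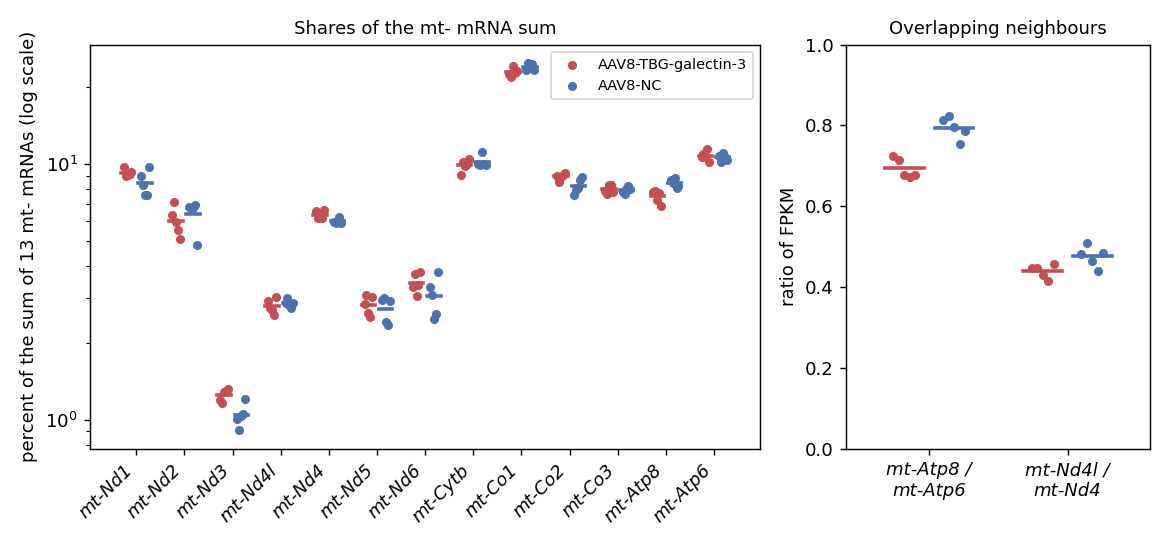
Left, percent of the sum of the 13 mitochondrial mRNAs taken by each (log axis); right, ratio of FPKM of the overlapping neighbours mt-Atp8 over mt-Atp6 and mt-Nd4l over mt-Nd4 (linear axis from 0). Points are the libraries labelled knockdown (AAV8-TBG-galectin-3, left) and the AAV8-NC libraries (right) and bars are means. The mt-Atp8 share and the mt-Atp8 to mt-Atp6 ratio, 0.694 ± 0.0248 in the labelled knockdown and 0.795 ± 0.0262 in AAV8-NC, are the ones without overlap.

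Transcript length moved with the groups across the whole table. The slope of log2 FPKM departures on transcript length was -0.03 ± 0.02 per doubling in the libraries labelled knockdown and 0.03 ± 0.01 in AAV8-NC libraries, with ranges of -0.06 to -0.01 in the labelled knockdown and 0.02 to 0.05 in AAV8-NC that did not overlap. Departures were taken from each gene's mean over all libraries, so the group means had to mirror each other with opposite signs. Only the difference between the groups is a result. By that difference, shorter transcripts tended to be higher in the labelled knockdown. The members are short, 59 to 1824 bases, beside a median of 2970 bases for tested genes. With this trend removed, the median log2 fold change of the 13 mRNAs was 0.15 and 1 member, mt-Tt, was called (log2 fold change 0.47, limma adjusted p = 0.0322), beside 6.78% of all genes called higher and 5.46% lower. What part RNA length or integrity had in the mitochondrial values was not tested.

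The nuclear genes of the same complexes were compared as lists. Of 78 tested nuclear genes of oxidative phosphorylation, 39 (50.0%) were called higher, beside 7.13% of all genes, and 2 were called lower. In complex I, 21 of 36 were higher and 1 was lower. The lower gene was Ndufs1, at 10.7 ± 1.55 FPKM in the libraries labelled knockdown and 13.8 ± 0.654 FPKM in AAV8-NC libraries. Its log2 fold change was -0.35 (limma adjusted p = 0.0353). The Ndufs1 call was kept in 5 of the 10 fits that left out 1 library. Ndufb7 had 16.9, 15.3, 17.2, 13.7 and 18.9 FPKM in the libraries labelled knockdown, against 10.1, 9.63, 9.70, 11.03 and 10.3 FPKM in AAV8-NC libraries (log2 fold change 0.64, limma adjusted p = 0.00629). These values did not overlap, and labelled knockdown library 1 and AAV8-NC library 5 did not stand apart. Ndufb7 had the smallest limma p of the 36, and other genes of the list, the called Ndufa3 and Ndufs6 among them, overlapped between the groups. Ndufa6 (0.62, adjusted p = 0.00684), Ndufa13 (0.59, 0.00778) and Ndufv3 (0.47, 0.00829) were higher too, all accessory subunits.

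In complex III, 4 of 9 nuclear genes were higher and 0 lower: Uqcrq (log2 fold change 0.75, limma adjusted p = 0.00778), Uqcr10 (0.42, 0.0201), Uqcrb (0.40, 0.0201) and Uqcr11 (0.55, 0.0202). In complex IV, 8 of 11 were higher and 0 lower, with Cox5b at 65.9, 60.3, 60.9, 58.9 and 62.8 FPKM in the libraries labelled knockdown, against 40.6, 40.2, 41.2, 46.6 and 40.6 FPKM in AAV8-NC libraries (0.55, limma adjusted p = 0.00518). Cox6c (0.52, adjusted p = 0.00846), Cox7a2 (0.30, 0.0213) and Cox6a1 (0.32, 0.0241) were higher as well. Of 18 nuclear ATP synthase genes 6 were higher and 0 lower, among them Atp5pd (0.62, limma adjusted p = 0.00518), Atp5pf (0.41, 0.00852), Atp5f1e (0.62, 0.0113) and Atp5mf (0.47, 0.0115). Complex II, which has no mitochondrially encoded subunit, had 0 of 4 higher and 1 lower, its catalytic subunit Sdha, at 53.0, 70.8, 70.8, 74.3 and 75.5 FPKM in the libraries labelled knockdown and 80.9, 93.2, 97.0, 95.9 and 85.7 FPKM in AAV8-NC libraries (-0.40, limma adjusted p = 0.0279). The Sdha call was lost without labelled knockdown library 3 or AAV8-NC library 2, 3 or 4 (adjusted p up to 0.0670), and so was that of Cox6a1 in 4 of the 10 fits that left out 1 library (up to 0.0627), Cox7a2 in 2 and Uqcr10 in 1. The summed FPKM of the nuclear lists for complexes I, III and IV did not overlap between the groups, unlike those of the mitochondrial mRNAs of the same complexes. The sum of the nuclear ATP synthase list overlapped, at 1041 to 1243 FPKM in the labelled knockdown and 1053 to 1170 FPKM in AAV8-NC. That of complex II overlapped too. The difference between the nuclear and the mitochondrial lists was not tested. With the length trend removed 22 of the 78 nuclear genes were called higher, beside 6.78% of all genes, and without AAV8-NC library 2 there were 25, beside 3.65%.

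Nuclear genes that express and keep up mitochondrial DNA were called higher at a share close to that of all genes and lower at a smaller one. Of 106 tested genes in 5 lists, 11 (10.4%) were called higher, beside 7.13% of all genes, and 4 (3.77%) lower, beside 9.65%. The count called higher was 7 without labelled knockdown library 1, 6 without labelled knockdown library 3 or AAV8-NC library 4, 5 without labelled knockdown library 5 or AAV8-NC library 2 and 4 without AAV8-NC library 3. The count called lower was 2 without labelled knockdown library 1, 2 or 3, 1 without AAV8-NC library 2 and 0 without AAV8-NC library 3. In those fits 3.28 to 5.85% of all genes were called higher and 4.08 to 6.15% lower. Of 11 transcription genes 1 was higher and 0 lower: Polrmt, the mitochondrial RNA polymerase, averaged 6.46 ± 0.537 FPKM in the libraries labelled knockdown and 5.19 ± 0.560 FPKM in AAV8-NC libraries (log2 fold change 0.27, limma adjusted p = 0.0444), and no fit that left out 1 library (0 of 10) kept this call; their adjusted p reached 0.103. Tfam, which packages mitochondrial DNA and starts its transcription, averaged 7.75 ± 0.668 FPKM in the labelled knockdown and 8.31 ± 0.444 FPKM in AAV8-NC (-0.09, adjusted p = 0.412). Of 21 replication and nucleoid genes 4 were higher and 3 lower. Endog, a mitochondrial nuclease (0.52, limma adjusted p = 0.0102), Top1mt, the mitochondrial topoisomerase (0.33, 0.0146), and Ssbp1, the single-stranded DNA binding protein (0.30, 0.0225), were higher, and Suclg1, a succinyl-CoA ligase subunit (-0.39, 0.0216), was lower. The calls of Ssbp1 and Suclg1 were kept in 8 of the 10 fits that left out 1 library.

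Of 47 genes of mitochondrial RNA processing, decay and modification, 5 were higher and 0 lower, among them Yrdc, which acts in tRNA modification (log2 fold change 0.43, limma adjusted p = 0.0192), Fastk (0.39, 0.0292), whose mitochondrial form is needed for mt-Nd6 mRNA, and the methyltransferase gene Trmt61b (0.28, 0.0367). Slirp, a stabilizer of mitochondrial mRNAs, averaged 2.46 ± 0.549 FPKM in the libraries labelled knockdown and 1.57 ± 0.287 FPKM in AAV8-NC libraries (0.42, limma adjusted p = 0.0322), and its partner Lrpprc averaged 8.60 ± 1.11 FPKM in the labelled knockdown and 10.6 ± 1.05 FPKM in AAV8-NC and was not called (-0.28, adjusted p = 0.0655). Of the 10 fits that left out 1 library, 3 kept the call of Slirp, 3 that of Trmt61b and 6 that of Fastk, with adjusted p up to 0.0730 for Slirp, 0.0838 for Trmt61b and 0.0701 for Fastk. Of 16 genes listed under mitochondrial translation factors, 1 was higher and 0 lower: Mtres1 (0.52, limma adjusted p = 0.00941). Placing Mtres1 on this list rather than among the transcription genes was a choice made when the lists were drawn up. Of 11 regulators of mitochondrial biogenesis 0 were higher and 1 was lower: Ppara, the nuclear receptor of fatty acid oxidation, averaged 4.90 ± 1.48 FPKM in the libraries labelled knockdown and 8.88 ± 2.002 FPKM in AAV8-NC libraries (-0.75, limma adjusted p = 0.0224), a call kept in 8 of the 10 fits that left out 1 library. Ppargc1a, the coactivator PGC-1α, averaged 1.27 ± 0.354 FPKM in the labelled knockdown and 1.37 ± 0.346 FPKM in AAV8-NC (-0.06, adjusted p = 0.776).

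The authors' deposited table gives its own q-values for the members. By the authors' deposited table, q was under 0.05 for 4 members: mt-Tp (0.00923), mt-Nd3 (0.0107), mt-Ts1 (0.0204) and mt-Rnr1 (0.0250). The authors' deposited table marks 0 members as significant. Of the 4 genes called here, mt-Tp and mt-Nd3 are on both lists. For the other two, the authors' deposited table gives q-values of 0.310 for mt-Tt and 0.625 for mt-Tv.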

How the data were processed

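RNA of 10 liver samples was sequenced after oligo(dT) selection and dUTP strand marking, per the labels' protocols. The submitters' processing notes list cutadapt 1.9, HISAT2 2.0.4 and StringTie 1.3.4d. They name GRCh38, a human build, while the identifiers are mouse, so the build behind the values is unknown and no coordinates are printed. The authors deposited FPKM per library, per the file headers. They also deposited a fold ratio, its log2 value, a p-value and a q-value per gene, per the file headers; no source used here names the test, and only q-values are printed. Whole reads were not recovered, because no more than 14.7 to 19.4% of low values were multiples of 1 step (tolerance 0.02), so depth is unknown; 21653 to 23079 genes were above 0 per library. Precision is given by the spread between 5 libraries, of which 0 pairs were identical. No label ties each library to a separate mouse, so p-values measure only the spread between libraries. Groups came from the sample titles, and the labels give no batch that separates libraries.

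The members and lists were chosen with earlier results of these data known. The groups were compared with limma 3.58.1 (R 4.3.3; mean-variance trend) on log2(FPKM + 1) of 13471 genes; such fold changes understate those of low genes. The second fit scaled libraries to the sum of 13 mitochondrial mRNAs. Permutation tests of 4 ratios were added after the data had been seen. Lengths came from GENCODE M21 for 97.9% of tested genes. Named genes were all members, up to 4 called genes of each nuclear list by smallest p, and Lgals3. Tfam, Lrpprc, Ppargc1a, Ndufa3, Ndufs6, Ndufs1, Atp5f1a and Atp5f1b were added after their values were seen. On simulated data (13471 genes, 1 draw) the fit called 70% of genes changed 1.5-fold and 94% changed 2-fold, with 5.20% false calls. Alternatives were other pseudocounts, filters, scalings, weights and variance models, a replicate block, length trend removal, added nuclear copies and left-out libraries.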

Additional observations from a re-analysis of the deposited data

Results flagged for a closer look

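In 110 sets of 5 libraries, 15 held a library set apart from the other 4 (Dixon's criterion, which chance meets in about 1 in 20 sets); members of 1 library share its mitochondrial content, so these are not 15 separate events. Of the 15, 10 lay in labelled knockdown library 1 and 3 in AAV8-NC library 5.

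Labelled knockdown library 1 stood highest for the mitochondrial percent of FPKM, at 21.7% with the others at 14.4 to 16.3%. The same library stood highest for mt-Nd1 (8429 FPKM, others 4814 to 5467), mt-Nd3 (1029, others 684 to 736.5) and mt-Nd4 (5654, others 3327 to 3755). It was also highest for mt-Co1 (19537 FPKM, others 12307 to 13343), mt-Co2 (7784, others 4736 to 5185) and mt-Co3 (6779, others 4352 to 4662). Among tRNA genes it was set apart for mt-Tm (556 FPKM, others 199 to 213), mt-Tq (248, others 91.4 to 104) and mt-Tp (346, others 205 to 228).

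AAV8-NC library 5 was set apart for mt-Nd1 (6070 FPKM, others 3662 to 4180), for mt-Nd3 (753, others 455 to 506) and for the share of mt-Nd2 in the mRNA sum, which was low at 4.82% with the others at 6.74 to 6.92%. AAV8-NC library 3 was low for mt-Tt (1.69 FPKM, others 2.64 to 2.88) and high for the share of mt-Cytb in the mRNA sum (11.1%, others 9.94 to 10.04%).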

How the results depend on the processing

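Of 850 values of single members under alternative settings, 789 kept their direction and side of the threshold, 30 lost a call, 24 gained one and 7 changed sign. The count of 4 members called higher (7.13% of all tested genes) was 1 with no filter on low values (1.72%), 2 when libraries were scaled to the FPKM of genes that are not mt- (5.52%), 1 with a replicate block (5.71%) and 1 with the length trend removed (6.78%); it was 3 to 6 in the other planned settings (6.77 to 9.87%), and 1 to 11 without 1 library (3.28 to 7.17%). Without both labelled knockdown replicate 1 and AAV8-NC replicate 5, chosen after seeing the data, it was 12 (4.68%). The count called lower was 0 in every setting. Replicate numbers did not pair the samples: same-number correlations were -0.01 to 0.11, and 2 of the 5 labelled knockdown libraries correlated best with the AAV8-NC library of their own number. Nuclear genes of oxidative phosphorylation called higher numbered 22 to 45 over all settings (39 as reported), those of mitochondrial DNA expression and upkeep 4 to 15 (11 as reported) and, called lower, 0 to 9 (4 as reported). FPKM carries no depth, so no limit of detection can be given.

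Sign changes were at small log2 values. Under quantile normalization mt-Cytb stood at -0.0079, mt-Nd2 at -0.10 and mt-Atp8 at -0.19, and the median of the 13 mRNAs at 0.06. With the length trend removed mt-Atp8 stood at -0.093. In fits without 1 library, mt-Atp8 ran from -0.046 (without labelled knockdown replicate 1) to 0.16, mt-Tr from -0.27 to 0.17 (without AAV8-NC replicate 2), Lgals3 from -0.093 (without AAV8-NC replicate 5) to 0.26, with -0.0096 without labelled knockdown replicate 2, and the marker Cd79b from -0.11 to 0.017. Without both libraries named above mt-Ti stood at -0.10, Lgals3 at -0.072 and the marker Elovl3 at -0.012; Elovl3 stood at -0.096 with array weights. The cause of these shifts was not tested.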
